A study of Mus musculus with 2 samples.

Results

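The 10 S100 genes described here (S100a1, S100a3, S100a4, S100a6, S100a8, S100a9, S100a10, S100a11, S100a14 and S100a16) were chosen by symbol from the 31053 genes of both count tables. S100 proteins are small proteins with paired EF-hand domains, most of which change shape on binding calcium and then hold on to other proteins. S100A8 and S100A9 join into calprotectin, which fills the cytosol of neutrophils, takes up zinc and manganese, and binds TLR4 and the receptor RAGE once it is released. Others act inside cells on annexins and myosin, and several lie in or beside the epidermal differentiation complex, a run of genes used in the cornified layer of the skin.

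The data were 2 single-cell RNA libraries of back skin wounds 5 days after wounding, each from live, 7AAD-negative cells pooled from 3 mice. Both groups were C57BL/6 mice 7-9 weeks old that the labels give as Mrc1-DTR, in which the Mrc1 (CD206) promoter drives the diphtheria toxin receptor. The first group was given PBS and the other diphtheria toxin (DTX), and the study used the pair to ask what happens in a wound when CD206+ macrophages are removed. The methods describe the controls instead as wild-type mice given toxin, and state 2 technical and 0 biological replicates. With 1 library per group there was no test. Every interval below is a 95% interval for counting error alone, and differences between mice or captures cannot be told apart from those of the treatment.

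Of 12058 and 11031 deposited cells, 7944 (PBS) and 6613 (DTX) were kept, with medians of 9579.5 and 7286 unique molecular identifiers (UMIs, each counting 1 captured RNA molecule). The libraries shared 37 barcodes among all cells and 13 among kept cells. Clusters made without any S100 gene were named from marker lists, and 8 classes with at least 50 cells in each library were compared. Mrc1 itself had 490 CPM in PBS and 432 CPM in DTX in macrophage-like cells (CPM, the UMIs of a gene scaled to the same total of UMIs in every class), and 65.4 and 268 CPM over all kept cells. Its level over all cells was thus not lower in the library labelled DTX. The macrophage-like subcluster led by Ccl8, Lpl and C1qa held 1334 of 1838 such cells in PBS and 407 of 4565 in DTX. The text of the study assigns the totals of deposited cells to the groups the other way round, and "PBS" and "DTX" stand below for the libraries so labelled. Macrophage-like cells made up 23.1% of kept cells in PBS and 69.0% in DTX, neutrophil-like cells 1.51% and 6.47%, fibroblast-like cells 38.6% and 9.93%, and epithelial-like cells 26.0% and 3.55%. RNA of 8 keratinocyte genes summed to 472 CPM (PBS) and 149 CPM (DTX) in macrophage-like cells, and RNA of 8 fibroblast genes to 749 and 149 CPM. Every keratinocyte gene tested was at least 2-fold lower in neutrophil-like (4 of 4), macrophage-like (8 of 8), dendritic-like (6 of 6), fibroblast-like (8 of 8), pericyte-like (5 of 5) and endothelial-like cells (4 of 4). In T or NK-like cells 6 of 7 were lower, and 0 of 8 in epithelial-like cells. By class, from 1.29% (T or NK-like) to 7.39% (neutrophil-like) of all genes tested were lower. Fibroblast genes were lower in all tested in the same way (5 of 5 in neutrophil-like, 7 of 7 in macrophage-like, 6 of 6 in dendritic-like, 5 of 5 in T or NK-like, 7 of 7 in epithelial-like and 6 of 6 in endothelial-like cells), in 3 of 7 in pericyte-like cells and in 0 of 8 in fibroblast-like cells.

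All 10 genes lie on chromosome 3 (GRCm38, GENCODE M21) and code for proteins. From S100a1 to S100a9, 8 of them lie between 90511034 and 90695721, and S100a11 and S100a10 lie 2825 kb further on, between 93520488 and 93564643. S100a8 and S100a9 stand on opposite strands with 22596 bases between them. The predicted gene Gm42674 overlaps S100a3 and S100a4 on the same strand, and S100a2 overlaps S100a3, so reads of the shared parts may be missing from these counts. RefSeq (GRCm38.p6) gave 12 start sites for 8 of the genes, S100a10 and S100a14 being without an entry. The stretches below show 140 bases before the annotated start and 20 after it for the pair that differed most between the libraries (S100a8 and S100a9), for S100a4 and for S100a11. Capitals mark matches to the TATA box TATAAA or to the AP-1 motif TGANTCA.
S100a8, chr3:90668931-90669090, strand plus: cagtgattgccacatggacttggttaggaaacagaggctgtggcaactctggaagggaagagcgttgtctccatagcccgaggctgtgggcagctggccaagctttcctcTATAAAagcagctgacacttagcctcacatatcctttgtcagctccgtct
S100a9, chr3:90695702-90695861, strand minus: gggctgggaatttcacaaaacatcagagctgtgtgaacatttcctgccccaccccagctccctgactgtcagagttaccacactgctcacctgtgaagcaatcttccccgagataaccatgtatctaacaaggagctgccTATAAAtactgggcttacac
S100a4, chr3:90603630-90603789, strand plus: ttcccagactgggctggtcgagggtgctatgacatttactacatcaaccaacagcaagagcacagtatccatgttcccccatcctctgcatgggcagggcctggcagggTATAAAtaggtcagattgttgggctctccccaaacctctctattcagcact
S100a11, chr3:93520356-93520515, strand plus: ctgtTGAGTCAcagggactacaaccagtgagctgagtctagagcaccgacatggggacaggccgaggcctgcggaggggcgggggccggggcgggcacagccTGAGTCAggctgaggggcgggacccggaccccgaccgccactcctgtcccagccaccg
Both strands of windows from 250 bases before to 50 bases after each start were searched for these motifs and for the C/EBP motif TTGCNNAA. Over all 32851 windows, 13.62% held TATAAA, 7.808% TGANTCA and 10.8% TTGCNNAA. TATAAA began 30 bases before the start in S100a8, 31 before it in S100a4, at the start itself in S100a9 and 52 before 1 of the 4 starts of S100a3. S100a11 held TGAGTCA at 38 and 136 bases before its start, S100a16 held TGAATCA at 192, and S100a9 held TTGCTTAA at 236, outside the stretch shown. The windows of S100a1 and S100a6 matched none of the 3 motifs. These matches describe letters only.

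Among the 8 classes compared, the class with the highest level was the same in PBS and DTX for 9 of the 10 genes. It was the neutrophil-like class for S100a6, S100a8, S100a9 and S100a11, the epithelial-like class for S100a3, S100a14 and S100a16, the dendritic-like class for S100a4 and the macrophage-like class for S100a1. S100a10 was the exception, with its highest level in epithelial-like cells in PBS and in macrophage-like cells in DTX. For S100a6 in PBS, neutrophil-like (5106 CPM) and pericyte-like cells (5028 CPM) overlapped. Scaling by the trimmed mean of M-values (TMM) was set between the 2 libraries within each class, so it cannot rank classes.

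**Figure D1:**
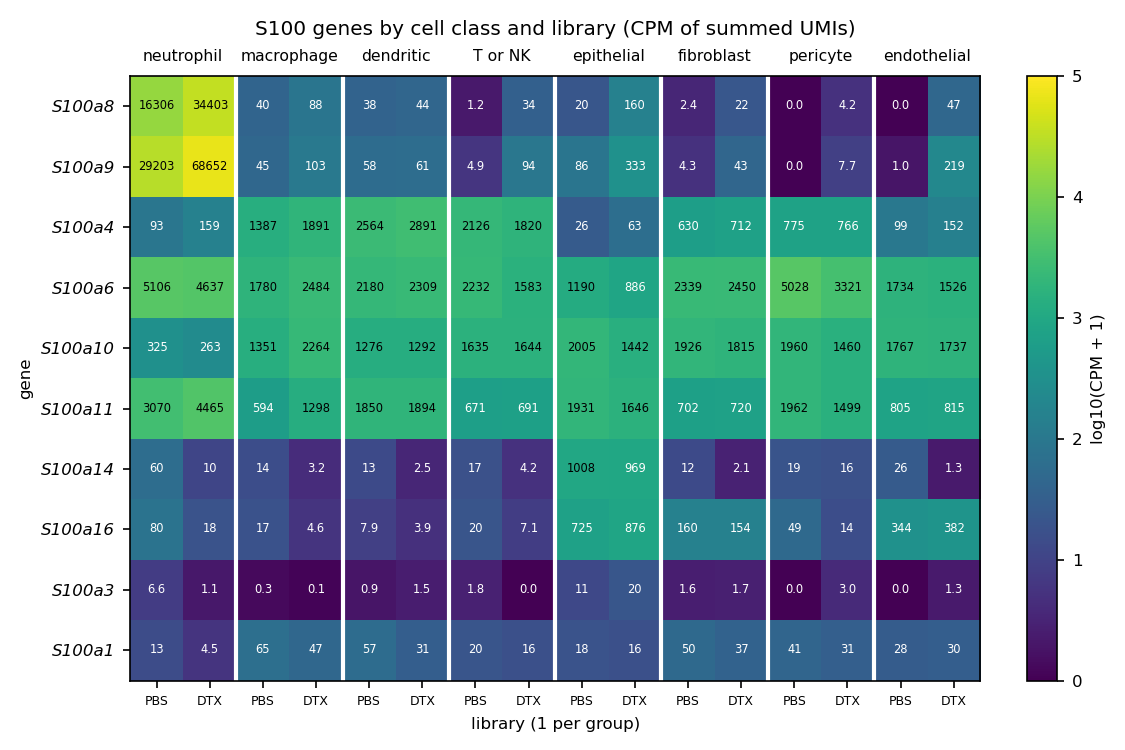
Levels of the 10 S100 genes in 8 cell classes and both libraries, as CPM of UMIs summed over the cells of a class (numbers) and as log10(CPM + 1) (colour). Values are to be read along a row: S100a8 and S100a9 reach 16306 to 68652 CPM in neutrophil-like cells, S100a14 stands near 1000 CPM in epithelial-like cells alone, and S100a6, S100a10 and S100a11 are found in every class.

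The design sets toxin against PBS, and the 2 libraries so labelled were compared by log2((DTX CPM + 1)/(PBS CPM + 1)) for genes with at least 50 UMIs in a class. With 1 library per group, these ratios describe the libraries and cannot tell what the toxin did. Of 80 pairs of gene and class, 63 had that many. Among them 13 were at least 2-fold higher in DTX, with S100a8 in 5 classes and S100a9 in 6, and 5 were at least 2-fold lower, all of them S100a14 or S100a16. Over all genes, 2.16% of such pairs were higher and 2.24% lower. In neutrophil-like cells 2 of 6 members tested were higher and 0 lower, against 6.49% and 7.39% of all genes tested. The macrophage-like class had 3 of 9 higher and 2 lower, against 1.58% and 3.3%. For epithelial-like cells the counts were 3 of 10 higher and 0 lower, against 2.67% and 2.07%, and for fibroblast-like cells 2 of 10 higher and 1 lower, against 2.64% and 1.4%. T or NK-like cells had 2 of 7 higher and 0 lower (1.12% and 1.29%), endothelial-like cells 1 of 7 higher and 0 lower (1.84% and 2.64%), dendritic-like cells 0 of 8 higher and 1 lower (1.27% and 1.47%), and pericyte-like cells 0 of 6 higher and 1 lower (2.2% and 2.11%). The median log2 ratio of the members tested was furthest from that of all genes in neutrophil-like cells (0.65 against -0.17) and macrophage-like cells (0.48 against 0.06). In pericyte-like cells it was -0.42 against -0.01, and in the other 5 classes it lay between 0.01 and 0.11, against -0.03 to 0.12 for all genes.

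**Figure D2:**
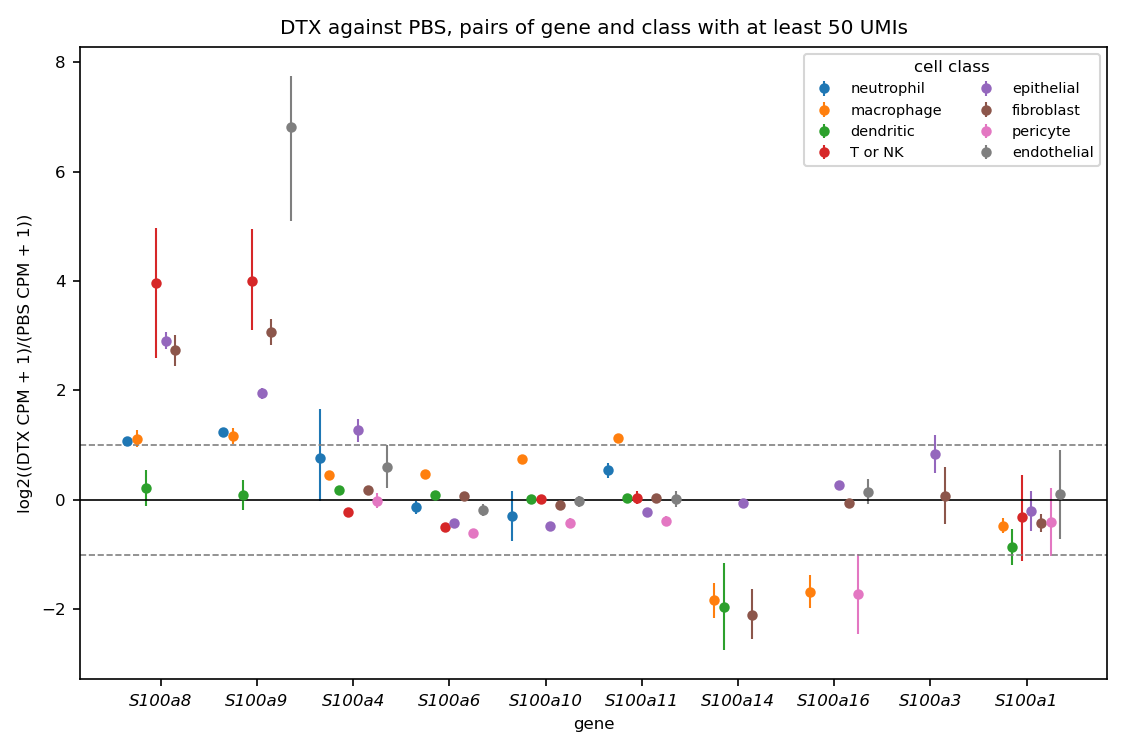
Log2 ratio of DTX to PBS for the 63 pairs of gene and class with at least 50 UMIs; bars are 95% counting intervals and dashed lines mark 2-fold. S100a8 and S100a9 lie above 0 in every class plotted, S100a14 and S100a16 hold all points below the lower line, and most other pairs lie between the lines.

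Neutrophil-like cells were the main site of S100a8 and S100a9. S100a8 had 16306 CPM (PBS) and 34403 CPM (DTX) there, a log2 ratio of 1.08 (1.02 to 1.14). S100a9 had 29203 and 68652 CPM, a log2 ratio of 1.23 (1.19 to 1.28). Both genes were thus more than 2-fold higher in DTX, although the counting intervals rest on 120 PBS cells of a median 1205 UMIs and 428 DTX cells of a median 1874 UMIs. Leaving out the 1 cell with the most of both in each library, an alternative chosen after seeing the data, gave 1.16 and 1.29. With the cells called doublets kept, the ratios were 0.54 and 0.70, short of 2-fold. The class held 67.9% of all S100a8 UMIs in PBS and 88.5% in DTX, and 57.7% and 91.5% of those of S100a9.

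The higher values were seen in cells as well as in sums. After every cell was thinned to 1000 UMIs, with 20 PBS and 4 DTX cells below that depth left out, 88 of 100 PBS cells and 415 of 424 DTX cells had a UMI of S100a8. Without thinning, 90% and 98.8% of the cells had one. The median thinned neutrophil-like cell had 13 UMIs of S100a8 in PBS and 31.5 in DTX, and 24 and 68 of S100a9. In Langerhans-like cells, which should lack both genes and had medians of 9507 and 10637 UMIs, S100a8 was seen in 0 of 122 and 0 of 37 thinned cells, which allows shares of cells with a UMI of up to 2.46% and 8.11% at 3 counts (exact binomial limits 2.98% and 9.49%), and S100a9 in 0 of 122 and 1 of 37. The ratio of S100a8 to S100a9 UMIs was 0.558 (0.531 to 0.587) in PBS and 0.501 (0.494 to 0.508) in DTX.

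Other neutrophil genes differed among themselves in these cells. Of 8 neutrophil genes, the markers that named the class, 4 were at least 2-fold higher in DTX and 0 lower, against 6.49% and 7.39% of all genes. Those higher were G0s2, Slfn4, Retnlg (1439 and 3534 CPM) and Cxcr2, the receptor for CXC chemokines (245 and 639.7 CPM). The other 4 did not pass 2-fold. Csf3r, the receptor for the growth factor G-CSF, had 736 and 662 CPM, Il1r2 2593 and 1858 CPM, Mmp9 451 and 468 CPM and Trem1 1167 and 1539 CPM. Of 9 granule genes 4 had enough UMIs and all 4 were higher (6.49% of all genes were). Among them was Lcn2, which binds bacterial siderophores (484 and 1315 CPM, log2 ratio 1.44, 1.10 to 1.80). In macrophage-like cells 4 of 5 granule genes were higher (1.58% of all genes were), led by Chil3 (159 and 1336 CPM). Chil3 was a leading gene of the macrophage-like cluster and of its subcluster 1, which held 39 PBS and 1300 DTX cells. The paper lists Chil3, Lcn2, Mmp8 and Wfdc21 among the top genes of its Vcan+ macrophages. Granule genes higher elsewhere were 3 of 5 in fibroblast-like (2.64% of all genes), 2 of 2 in epithelial-like (2.67%) and 1 of 2 in pericyte-like cells (2.2%). They were 1 of 1 in dendritic-like (1.27%) and endothelial-like cells (1.84%) and 0 of 1 in T or NK-like cells (1.12%).

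Outside neutrophil-like cells both genes were far lower. In endothelial-like, T or NK-like and dendritic-like cells most of their DTX UMIs lay in few cells. Among the 8 classes compared, the next class stood 407-fold (S100a8, macrophage-like, PBS) and 215-fold (S100a8, epithelial-like, DTX) below the neutrophil-like class. For S100a9 it was the epithelial-like class, 341-fold and 206-fold below. Macrophage-like and dendritic-like cells overlapped in S100a8 in PBS, and endothelial-like, dendritic-like and T or NK-like cells did in DTX. In T or NK-like cells S100a9 had 4.91 CPM (8 UMIs) in PBS and 93.8 CPM (133 UMIs) in DTX, but 103 of the 181 UMIs of the pair in DTX came from 1 cell. In endothelial-like cells S100a9 had 1 UMI and 169 UMIs (log2 ratio 6.81, 5.10 to 7.75) and S100a8 had 0 and 36, at least 16.3-fold higher in DTX when the 0 is set to 3 counts. Of these 205 UMIs, 198 lay in 1 of the 56 cells, and without it S100a8 had 2 and S100a9 5 UMIs left. Pericyte-like cells had 0 UMIs of either gene in PBS, and 7 of S100a8 and 13 of S100a9 in DTX. Dendritic-like cells had sums that differed by less than the counting error (S100a8 37.6 and 43.9 CPM, S100a9 57.7 and 61.4 CPM). There 1 PBS cell held 286 of 312 UMIs, and without the top cell of each library S100a8 stood at 4.90 and 23.3 CPM and S100a9 at 3.06 and 33.6 CPM. However, 3 DTX cells and 1 PBS cell held 20 or more UMIs of the pair. Without all of these S100a8 stood at 4.90 and 6.47 CPM (log2 ratio 0.34, -0.47 to 1.16). S100a9 then stood at 3.06 and 8.21 CPM (1.18, 0.31 to 2.03). In fibroblast-like cells S100a8 had 2.43 CPM in PBS and 21.8 CPM in DTX (log2 ratio 2.73) and S100a9 4.25 and 42.9 CPM (3.06). Of their 629 DTX UMIs 519 fell in the 45 cells of a subcluster led by immune genes such as Cd74 and Lyz2. Most PBS cells of this class were in cluster 1 (2165 of 3067) and the DTX cells were split between cluster 1 (315) and cluster 3 (342).

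**Figure D3:**
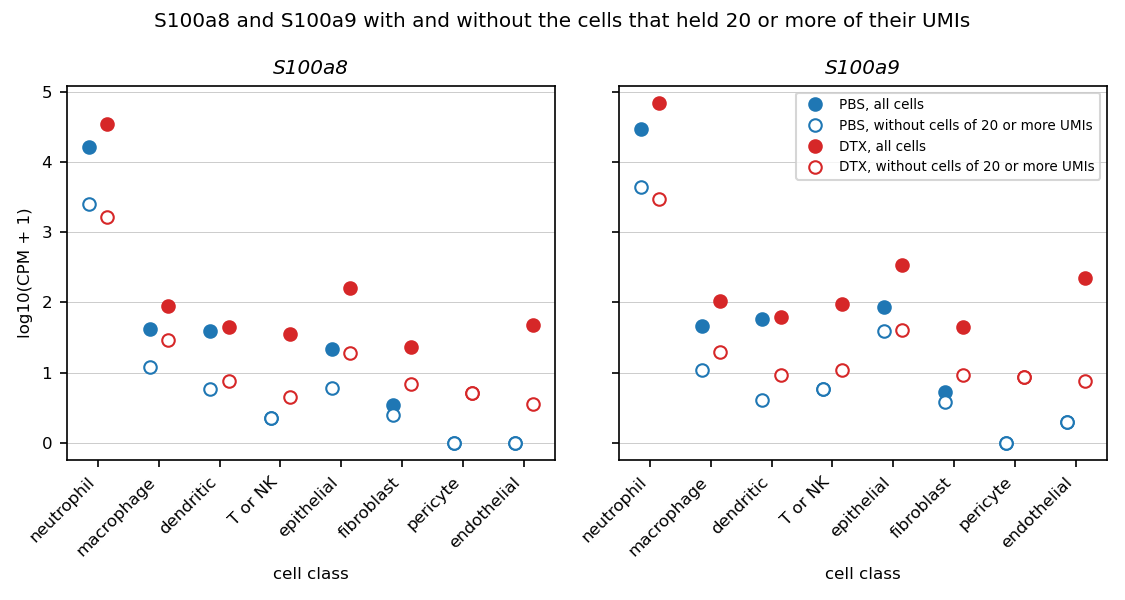
S100a8 and S100a9 in each class, as log10(CPM + 1), over all cells (filled) and without the cells that held 20 or more UMIs of the pair (open). Since the cut uses the UMIs of the pair, the open points lie below the filled ones wherever cells were removed. In DTX these were 45 of 4565 macrophage-like and 17 of 235 epithelial-like cells. In neutrophil-like cells the open points rest on 36 PBS and 21 DTX cells.

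Removing every cell with 20 or more UMIs of the pair showed how much these cells weighed. The cut uses raw counts of the genes compared, and depth differed between the libraries, so the ratios left describe the remaining cells only. In neutrophil-like cells, where 36 and 21 cells were left, the log2 ratio was -0.63 for S100a8 and -0.56 for S100a9. In macrophage-like cells 8 PBS and 45 DTX cells held 20 or more. Without them the log2 ratio was 1.29 (1.01 to 1.57) for S100a8 and 0.85 (0.56 to 1.15) for S100a9. For fibroblast-like cells the remaining ratios were 1.47 and 1.27, and for T or NK-like cells 1.03 and 0.89 with intervals that include 0. For epithelial-like cells S100a8 kept a log2 ratio of 1.63, while S100a9 stood at 38.6 and 38.8 CPM. The count of S100a8 and S100a9 per UMI of the 8 neutrophil genes was 6.22 and 9.72 in neutrophil-like cells, 3.19 and 12.3 in epithelial-like and 0.263 and 0.305 in macrophage-like cells. It was 0.169 and 0.0877 in dendritic-like cells, and in DTX 4.46 in endothelial-like and 0.948 in T or NK-like cells. Il1r2 gave 1988 of 2999 (PBS) and 11748 of 19927 (DTX) UMIs of the list in macrophage-like cells and 4624 of 4869 in DTX dendritic-like cells. Per UMI of Retnlg and Cxcr2 alone, the count was 27.0 and 24.7 in neutrophil-like, 25.1 and 59.8 in epithelial-like and 65.7 and 31.3 in macrophage-like cells. It was 24 and 20.3 in dendritic-like, and in DTX 22.8 in endothelial-like and 16.5 in T or NK-like cells. Such UMIs were few in PBS macrophage-like cells (12), in dendritic-like cells (13 and 21) and in DTX endothelial-like (9) and T or NK-like cells (11). In PBS epithelial-like cells all 120 were of Cxcr2 and 0 of Retnlg, whereas PBS neutrophil-like cells had 37 of Cxcr2 and 217 of Retnlg. The part of neutrophil RNA in these levels was not tested.

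In macrophage-like cells S100a8 had 40.1 CPM (PBS) and 87.9 CPM (DTX), a log2 ratio of 1.11 (0.96 to 1.27), and S100a9 45.02 and 103 CPM, a log2 ratio of 1.17 (1.03 to 1.32). Both fell short of 2-fold when cells with a UMI of a neutrophil gene were left out (0.92 and 0.51), and S100a8 with 10 CPM added (0.97). In thinned cells S100a8 was seen in 1.16% and 3.59% (3.21% and 12.2% unthinned) and S100a9 in 1.60% and 2.89% (3.97% and 10.6% unthinned). The unthinned shares of the more deeply read Langerhans-like cells were 3.28% and 5.41% for S100a8 and 0.820% and 10.8% for S100a9. The unthinned shares of S100a8 in PBS and of S100a9 in DTX were no higher than these. The neutrophil gene list summed to 324 CPM in PBS and 625 CPM in DTX in macrophage-like cells. Of its 8 genes 5 were at least 2-fold higher and 0 lower, against 1.58% and 3.3% of all genes. Il1r2 gave 215 and 369 CPM of these sums and Trem1 41.7 and 135 CPM, while Retnlg and Cxcr2 together had 1.30 and 6.09 CPM. Il1r2 was also a leading gene of subcluster 3. Leaving out cells with a UMI of the list therefore also removed cells by Il1r2. Subcluster 5, which held 49 PBS and 161 DTX cells and was led by Hspa1a, S100a9 and immediate early genes such as Fos, had 862 CPM of S100a8 and 1591 CPM of S100a9 in DTX. Without it the class stood at 40.8 and 59.7 CPM for S100a8 (log2 ratio 0.54) and 45.9 and 48.8 CPM for S100a9 (0.09). When S100 genes were used for clustering, 33 DTX macrophage-like cells were named neutrophil-like, 25 of them from subcluster 5, and these 33 had held 3350 of the 6079 UMIs of the pair in DTX. In PBS 8 cells were so renamed, which had held 198 of 788 UMIs. Other cells changed class as well, and the macrophage-like class then had 1699 PBS and 4396 DTX cells. The ratios were then 0.70 for S100a8 and -0.09 for S100a9.

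Summed over cells, the ratios of the subclusters went different ways. In subcluster 0, led by Ccl8, Lpl and C1qa, S100a8 had 45.4 and 31.0 CPM (log2 ratio -0.54) and S100a9 52.6 and 38.5 CPM (-0.44), and 0 of these were called where 0.684% of genes were higher and 2.25% lower. In subcluster 3, raised in MHC class II genes, S100a8 had 38.7 and 9.84 CPM and S100a9 37.6 and 13.8 CPM, both at least 2-fold lower (1.93% of genes tested were, and 1.99% were higher), with 136 of 148 PBS UMIs in 1 cell. In subcluster 4, led by Ccl7 and Cbr2, S100a8 had 1 and 235 UMIs (log2 ratio 3.15, 0.91 to 5.38) and S100a9 0 and 391 UMIs, at least 5.98-fold higher (9.49% of genes). In subcluster 6, raised in interferon response genes, S100a8 had 20.0 and 221 CPM and S100a9 31.5 and 313 CPM (4.5% of genes higher), with 253 of 432 DTX UMIs in 1 cell. In DTX the ratio of S100a8 to S100a9 UMIs was 2.37 in subcluster 1, raised in the monocyte genes Vcan, Plac8 and Hp, and 1.27 in subcluster 2, raised in Cd9 and Arg1. It was 0.542 in subcluster 5 and 0.601 in subcluster 4. Subclusters 6, 3 and 0 had 0.708, 0.714 and 0.805, and neutrophil-like cells 0.501 (0.494 to 0.508). The source of these UMIs was not tested.

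Among the 8 classes compared, epithelial-like cells carried the next highest levels of S100a9. Mast-like cells, too few to compare, had 161 and 539 CPM, with 110 of the 113 DTX UMIs of the pair in 1 of 19 cells. In epithelial-like cells S100a8 had 20.3 CPM (PBS) and 159.7 CPM (DTX), a log2 ratio of 2.91 (2.75 to 3.07). S100a9 had 85.6 and 333 CPM there, a log2 ratio of 1.95 (1.85 to 2.05). The cell with the most held 134 of 3016 UMIs of the pair in PBS and 339 of 1913 in DTX. This DTX cell lay in subcluster 6, which had 16 DTX cells and was led by the immune genes Lyz2 and Cd74. In DTX 4 of 235 cells held at least as many UMIs of the pair as the other cells together. In PBS 29 of 2066 cells did. The share of cells with a UMI of S100a9 was 4.31% (3.48 to 5.28) in PBS and 8.58% (5.32 to 12.9) in DTX after thinning, and 17.5% and 31.1% without it, with medians of 12592 and 16070 UMIs per cell. In subcluster 1, raised in the infundibulum genes Krt79, Cst6 and Defb6, S100a8 had 54.4 and 300.3 CPM and S100a9 121 and 552 CPM. The cell with the most there held 134 of 1093 UMIs of the pair in PBS and 213 of 1118 in DTX. In this subcluster 7 of 509 PBS cells and 3 of 85 DTX cells held at least as many as the other cells together. In subcluster 0, raised in the spinous genes Krt1 and Krt10, S100a9 had 123 and 256 CPM, with 221 of 341 DTX UMIs in 1 of 59 cells. Most PBS cells of the class were in cluster 2 (1166) and most DTX cells in cluster 4 (146). Lcn2, an antimicrobial gene of stressed keratinocytes, had 32.8 and 164 CPM in the class.

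S100a4 binds non-muscle myosin and is often used as a marker of motile mesenchymal and myeloid cells. Of the 8 classes compared it was highest in dendritic-like cells, with 2564 CPM (PBS) and 2891 CPM (DTX). Langerhans-like cells, too few to compare, had 2558 and 3083 CPM. Within the dendritic-like class S100a4 had 3625 and 3646 CPM in cluster 6, raised in Ccr7 and Ccl22, and 885 and 970 CPM in cluster 8. Cluster 8 had 7 of 10 dendritic markers raised, Flt3, Xcr1 and Clec9a among them, but none of the 10 among its leading genes. T or NK-like cells had 2126 and 1820 CPM and macrophage-like cells 1387 and 1891 CPM, and in DTX the intervals of these neighbours overlapped. Pericyte-like cells (775 and 766 CPM) and fibroblast-like cells (629.6 and 712 CPM) followed and overlapped in DTX, and endothelial-like (99.2 and 152 CPM) and neutrophil-like cells (92.8 and 159 CPM) overlapped in both libraries. Among fibroblast-like subclusters S100a4 ranged widely, from 89.1 CPM in PBS and 85.5 CPM in DTX in subcluster 2, led by Ctla2a and Gpx3, to 1311 and 1499 CPM in subcluster 1, led by Igfbp2 and Grem1. The fibroblast-like class as a whole had a log2 ratio of 0.18 (0.14 to 0.22).

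Over all kept cells S100a4 was 635 CPM in PBS and 1542 CPM in DTX, a log2 ratio of 1.28, while within classes it passed 2-fold in epithelial-like cells alone. There it was lowest, with 25.7 and 63.4 CPM (log2 ratio 1.27, 1.06 to 1.47). In subclusters 0 and 1 of that class it was 12.3 and 12.7 CPM, and 13.2 and 12.2 CPM. Subcluster 6, with 26 PBS and 16 DTX cells and led by the immune genes Lyz2 and Cd74, held 198 of its 732 UMIs in PBS and 206 of 246 in DTX. The ratio of the class was 0.32 when cells with a UMI of a neutrophil gene were left out and 0.85 when doublets were kept. In macrophage-like cells the log2 ratio was 0.45 (0.42 to 0.47), while in subclusters 0, 3, 4 and 6 it was -0.02, -0.32, -0.31 and -0.02.

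S100a6 (calcyclin), which binds the ubiquitin ligase partner CACYBP, was abundant in every class compared and passed 2-fold in none. Neutrophil-like cells had 5106 CPM (PBS) and 4637 CPM (DTX). Pericyte-like cells had 5028 and 3321 CPM, a log2 ratio of -0.60 (-0.66 to -0.54). Those of the PBS library overlapped with its neutrophil-like cells. Fibroblast-like (2339 and 2449.5 CPM), dendritic-like (2179.7 and 2309 CPM) and macrophage-like cells (1779.6 and 2484 CPM) came next in DTX, the macrophage-like and fibroblast-like classes overlapping. T or NK-like cells had 2232 and 1583 CPM, endothelial-like cells 1734 and 1526 CPM, and epithelial-like cells the lowest level at 1190.1 and 886 CPM (log2 ratio -0.43). Epithelial-like cells were split, with 337 CPM in PBS in subcluster 0 and 481 CPM in subcluster 1 but 2614 CPM in subcluster 2, led by Igfbp3 and Itga2, and 2687 CPM in subcluster 3. These held 430 and 273 cells in PBS and 16 and 39 in DTX.

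S100a10 (p11) has lost calcium binding and forms a tetramer with annexin A2 that holds plasminogen at the cell surface. Its level was 1351 CPM (PBS) and 2264 CPM (DTX) in macrophage-like cells, a log2 ratio of 0.75 (0.72 to 0.77). Epithelial-like cells had 2005 and 1442 CPM, a log2 ratio of -0.47 (-0.51 to -0.44), so that the highest class differed between the libraries. The remaining classes differed less, with 1926 and 1815 CPM in fibroblast-like, 1767 and 1737 CPM in endothelial-like, 1635 and 1644 CPM in T or NK-like and 1276 and 1292 CPM in dendritic-like cells. Pericyte-like cells had 1960.1 and 1460.2 CPM and overlapped with epithelial-like cells in both libraries. Neutrophil-like cells were lowest in both libraries, with 325 and 263 CPM, from 49 and 232 UMIs. With the cells called doublets kept, their difference turned to more than 2-fold higher in DTX. Anxa2, the partner, had 763 and 1131 CPM in macrophage-like cells (log2 ratio 0.57) and 2005 and 1898 CPM in epithelial-like cells (-0.08).

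S100a11 (calgizzarin), which binds annexin A1, was highest in neutrophil-like cells, with 3070.2 CPM (PBS) and 4465 CPM (DTX), a log2 ratio of 0.54 (0.40 to 0.68). In macrophage-like cells it had 594 and 1298 CPM, a log2 ratio of 1.13 (1.09 to 1.17), the only pair outside S100a4, S100a8 and S100a9 that was at least 2-fold higher. The class moved from the lowest of the 8 in PBS to the fifth in DTX. After thinning, 35.4% (33.2 to 37.7) of macrophage-like cells in PBS and 63.2% (61.8 to 64.6) in DTX had a UMI of S100a11, with 26 and 28 cells left out and medians of 4827.5 and 6776 UMIs per cell. Without thinning the shares were 73.01% and 94.98%. Of the 8 classes, dendritic-like (1849.5 and 1894 CPM), epithelial-like (1931 and 1646 CPM) and pericyte-like cells (1962 and 1499 CPM) followed neutrophil-like cells in both libraries. Endothelial-like, fibroblast-like and T or NK-like cells lay between 671 and 815 CPM in both libraries, with log2 ratios of 0.02, 0.04 and 0.04. Langerhans-like cells, which were not compared, had 2520 and 2250 CPM. The call in macrophage-like cells was lost at a clustering resolution of 0.4 (log2 ratio 0.81) and when cells with neutrophil RNA were left out (0.95).

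Within macrophage-like subclusters the log2 ratios were nearer to 0 for S100a11, S100a10 and S100a6 than over the whole class, whose make-up differed. Subclusters 1 and 2 held 39 and 8 cells in PBS but 1300 and 1100 in DTX, and they had 1804 and 1429 CPM of S100a11 and 2512 and 2855 CPM of S100a10 in DTX. In subclusters 0, 3, 4 and 6, which had at least 50 cells in each library, the log2 ratio of S100a11 was 0.06, 0.36, 0.03 and 0.70. That of S100a10 was 0.23, 0.16, -0.16 and 0.20, and that of S100a6 was 0.00, -0.28, -0.38 and 0.05. None of these was as much as 2-fold. Summed over those 4 subclusters, S100a11 had a log2 ratio of 0.69 (0.65 to 0.74) and S100a10 one of 0.48 (0.45 to 0.51).

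**Figure D4:**
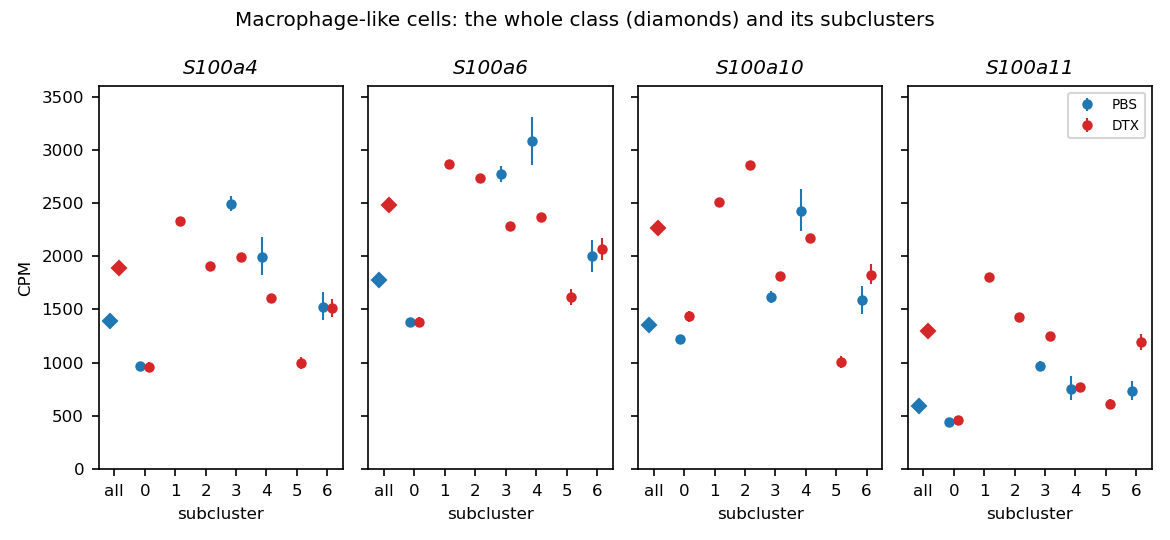
S100a4, S100a6, S100a10 and S100a11 in macrophage-like cells, in CPM with 95% counting intervals, for the whole class (diamonds) and for each subcluster with at least 50 cells in that library (circles). The diamonds of DTX lie above those of PBS in each panel, whereas within subclusters 3 and 4 the DTX points of S100a4 and S100a6 lie below those of PBS; subclusters 1, 2 and 5 have a DTX point only.

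S100a14, S100a16 and S100a3 marked the epithelial-like class. S100a14, a gene of epithelial cells, had 1008 CPM (PBS) and 969 CPM (DTX) there, a log2 ratio of -0.06, and the class held 97.6% and 95.5% of its UMIs. Elsewhere it was at least 2-fold lower in DTX in the 3 other classes with enough UMIs, with 14.1 and 3.23 CPM in macrophage-like, 12.5 and 2.47 CPM in dendritic-like and 12.1 and 2.06 CPM in fibroblast-like cells. The log2 ratios were -1.84, -1.96 and -2.10, which 10 CPM added in place of 1 brought to -0.87, -0.85 and -0.87, short of 2-fold, and those of the summed keratinocyte genes in the same classes were -1.65, -1.77 and -2.07. Over all kept cells S100a14 had 362 and 71.8 CPM, while epithelial-like cells were 26.0% and 3.55% of cells. S100a16, which is found more widely, had 725 and 876 CPM in epithelial-like cells (log2 ratio 0.27, 0.22 to 0.33), 344 and 382 CPM in endothelial-like cells and 160.0 and 154 CPM in fibroblast-like cells. It was at least 2-fold lower in macrophage-like cells (16.9 and 4.61 CPM, but a log2 ratio of -0.88 with 10 CPM added) and in pericyte-like cells (49.3 and 14.3 CPM, from 44 and 24 UMIs), where the keratinocyte sum had a log2 ratio of -1.82. The part of keratinocyte RNA in these lower levels was not tested.

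S100a3, known from the cuticle of hair, was rare. It had 10.96 CPM (312 UMIs) in PBS and 20.3 CPM (79 UMIs) in DTX in epithelial-like cells, a log2 ratio of 0.84 (0.48 to 1.18), and 1.63 and 1.75 CPM in fibroblast-like cells. In each of the other 6 classes it had from 0 to 6 UMIs per library. Of its deposited UMIs in DTX 47.2% were in kept cells, as were 48.2% of those of S100a14 and 47.6% of those of S100a16, against 67.0% of all UMIs. In PBS these shares were 66.4%, 75.1% and 74.4%, against 76.99%.

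S100a1, best known from heart muscle, was low in the 8 classes compared. It was higher in the classes with too few cells to compare, with 683 and 371 CPM (15 and 13 UMIs) in myocyte-like cells and 98.4 and 129 CPM in Langerhans-like cells. Macrophage-like cells had 65.2 CPM (PBS) and 46.8 CPM (DTX), a log2 ratio of -0.47 (-0.61 to -0.33), and dendritic-like cells 56.5 and 30.6 CPM, a log2 ratio of -0.87 (-1.20 to -0.54). Fibroblast-like cells had 49.9 and 37.0 CPM, pericyte-like cells 41.4 and 31.0 CPM, endothelial-like cells 27.7 and 29.8 CPM, T or NK-like cells 19.6 and 15.5 CPM and epithelial-like cells 18.4 and 15.97 CPM. Most neighbours in this order overlapped, and in PBS all did. In none of the 7 classes with enough UMIs did S100a1 differ by 2-fold.

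A list of 15 genes held partners and receptors of S100 proteins. Tlr4, a receptor for calprotectin, was at least 2-fold higher in DTX in macrophage-like cells (24.7 and 91.8 CPM, log2 ratio 1.85, 1.66 to 2.04), as 1 of 13 tested (1.58% of all genes were), and in neutrophil-like cells (26.5 and 126 CPM, from 4 and 111 UMIs), as 1 of 10 (6.49%). Cd14, which hands ligands to TLR4, was higher in fibroblast-like (11.9 and 72.9 CPM), epithelial-like (6.08 and 69.0 CPM), endothelial-like (45.8 and 209 CPM) and pericyte-like cells (22.4 and 45.9 CPM). Cd14 was also a leading gene of the macrophage-like cluster, a class that made up 23.1% of kept cells in PBS and 69.0% in DTX. Mrc1 had 2.84 and 15.7 CPM in epithelial-like, 2.94 and 15.2 CPM in fibroblast-like, 4.77 and 5.18 CPM in endothelial-like and 8.96 and 7.74 CPM in pericyte-like cells, and the part of macrophage RNA was not tested. Epithelial-like cells had 3 of 12 higher (with Alcam and Cd36, against 2.67% of all genes) and fibroblast-like cells 2 of 15 (with Alcam, against 2.64%). Pericyte-like and endothelial-like cells had 1 of 12 each (against 2.2% and 1.84%), dendritic-like cells 0 of 12 (1.27%) and T or NK-like cells 0 of 10 (1.12%). None was at least 2-fold lower in any of the 8 classes. Ager, which encodes RAGE, had 0 UMIs in epithelial-like cells in both libraries. Of 12 other genes of the epidermal differentiation complex 9 could be used in epithelial-like cells. Hrnr, a late cornified layer gene, was the 1 that was higher (12.0 and 29.4 CPM, against 2.67% of all genes), with 0 lower (2.07%). Sprr1a was lower in macrophage-like (38.0 and 8.16 CPM), dendritic-like, T or NK-like and fibroblast-like cells, and Sprr1b in macrophage-like and fibroblast-like cells. Those lower were 2 of 2 tested in macrophage-like (3.3% of all genes) and 2 of 3 in fibroblast-like cells (1.4%). They were 1 of 1 in dendritic-like (1.47%) and in T or NK-like cells (1.29%). The part of keratinocyte RNA in these lower levels was not tested. The neutrophil list had 2 of 3 genes higher in dendritic-like cells (Il1r2 and Trem1, against 1.27% of all genes) and 2 of 4 in fibroblast-like cells (2.64%). It had 0 of 3 in epithelial-like (2.67%), 0 of 1 in T or NK-like (1.12%) and in pericyte-like cells (2.2%) and 0 tested in endothelial-like cells.

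The genes most alike to each member were read from Pearson's r of log2(CPM + 1) over the 16 points of 8 classes and 2 libraries, among 10230 genes. Points of 1 class or 1 library share cells and depth, and r is given as a description only. S100a8 and S100a9 were each other's closest gene (r = 0.990), followed by Atg2a and Cxcr2 (0.936 and 0.929 with S100a8). S100a14 was closest to the basal keratins Krt14 (0.985) and Krt5 (0.983) and to Fxyd3 (0.980). Among the 3 genes most like S100a16 were Dll1 (0.985) and Tacc2 (0.951), and S100a3 was closest to Scel (0.918), Cdsn and Dsc1 (both 0.892). For S100a4 these were Emp3 (0.943), Taok3 and Htt, for S100a6 Elmod2 (0.893), Gm14005 and Pla1a, and for S100a10 Efr3a (0.952), Pbdc1 and Agap3. S100a11 had the weakest match, Acsl1 (0.820), Dusp16 and C030034I22Rik. Vwa5a (0.892) and Tmem256 (0.886) were among the 3 genes most like S100a1. Among the members themselves the most opposed pairs were S100a8 and S100a10 (-0.86) and S100a4 and S100a16 (-0.84).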

How the data were processed

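Cells were captured by 10x Genomics 3' chemistry, and the authors deposited 1 table of raw UMI counts per library. The submitters' processing notes name Cell Ranger 6.1.1 and mm10. No per-sample column was left unused (0). Members and gene lists were chosen with earlier results of these data known.

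Cells were kept when 500 or more genes were detected and mitochondrial UMIs made up 6% or less. Doublets were scored with Scrublet (scanpy 1.11.5), which removed 382 cells in PBS at its own threshold. It called 0 in DTX, where the 575 highest scores (8% expected) were removed. Cells were clustered with Seurat 5.3.0 (R 4.3.3; 1995 of 2000 variable genes, S100 genes being left out, 30 components, resolution 0.2). A cluster was named when at least 3 markers of a list were raised. Of 11 classes, 8 were compared, and Langerhans-like, mast-like and myocyte-like cells were not.

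UMIs were summed per class and library and given as CPM with exact Poisson intervals. Log2 ratios had 1 CPM added and exact conditional binomial intervals, and shares had Clopper-Pearson intervals. The limit for a count of 0 was 3 counts of the total. A call meant a ratio of at least 2-fold with at least 50 UMIs. The calculation was tested on simulated data. The genes named were the members, the list genes, Mrc1 and the 3 genes most alike to each member, besides genes that lead or mark a cluster and the genes overlapping a member; some genes of the likeness lists are not reported here. Alternatives were doublets kept, at most 2000 genes, at most 4% mitochondrial UMIs, S100 genes in the clustering, resolution 0.4, 0.1 or 10 CPM added, TMM (edgeR 4.0.16), means over cells, 10 or 200 UMIs, and cells with neutrophil RNA left out. Leaving out cells rich in S100a8 and S100a9, and values within subclusters, were chosen after seeing the data.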

Additional observations from a re-analysis of the deposited data

Results flagged for a closer look

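Summed over cells, S100a8 and S100a9 had ratios of opposite sign in macrophage-like subclusters. These differences were not tested, since each group had 1 library. The log2 ratio of S100a8 was -1.87 in subcluster 3, against 3.15 in subcluster 4 and 3.40 in subcluster 6. For S100a9 the values were -1.39 in subcluster 3, 6.24 in subcluster 4 and 3.27 in subcluster 6. A single cell held 136 of the 148 PBS UMIs of the pair in subcluster 3, so the lower ratios there rest on that cell. The DTX cells of subcluster 3 held 132 UMIs, with at most 8 in 1 cell. In subcluster 6 a single cell held 253 of the 432 DTX UMIs. In subcluster 4 the PBS library had 54 cells and 1 UMI of the pair, and 4 of its 855 DTX cells held 50% or more of the 626 UMIs. The value of 6.24 is set by the added 1 CPM, since S100a9 had 0 UMIs in PBS.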

How the results depend on the processing

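The count of 13 pairs higher in DTX was 5 with at most 2000 genes per cell, 7 with at most 4% mitochondrial UMIs and 5 without cells holding neutrophil RNA, and between 10 and 15 under the other settings. The count of 5 pairs lower was 3 with at most 2000 genes, 1 with 10 CPM added, 10 with at least 10 UMIs, 3 with at least 200 UMIs and 3 without cells holding neutrophil RNA, and between 4 and 7 otherwise. Fewer classes reached 50 cells under 3 of these settings (2, 4 and 6 of the 8). The members highest in the same class numbered 7 to 10, against 9. Under TMM this count has no meaning, since its factors were set within each class. Among the pairs called, direction turned for S100a9 in macrophage-like cells when S100 genes entered the clustering (-0.086), and within macrophage subclusters 0 (S100a8 -0.54, S100a9 -0.44) and 3 (S100a8 -1.87, S100a9 -1.39). In PBS 3 of 1334 cells of subcluster 0 and 1 of 290 cells of subcluster 3 held 50% or more of the UMIs of the pair. Short of 2-fold, S100a4 and S100a6 in macrophage-like cells were above 0 over the class but below it in subclusters 3 and 4, as was S100a10 in subcluster 4. S100a10 in neutrophil-like cells, not called at -0.30, turned to 1.31 with doublets kept, more than 2-fold higher. It was 0.25 with S100 genes in the clustering. Of the 18 pairs called, 13 stayed called with doublets kept, 13 with 10 CPM added, 16 with S100 genes in the clustering and 17 at resolution 0.4, and 8 of 12 did without cells holding neutrophil RNA. With doublets kept, S100a16 in pericyte-like cells stood at -0.87 and S100a9 in macrophage-like cells at 0.72. TMM scaling and means over cells kept all 18. TMM moved the scale by over 0.1 in neutrophil-like (-0.18) and fibroblast-like cells (0.13). The cause of these changes was not tested. No paired analysis was possible because each group had 1 library. Genes with few UMIs, S100a3 and S100a1 above all, are limited by depth.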

Other observations

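S100a10 also varied within classes in ways not described above. In fibroblast-like cells it was 1472 CPM (PBS) and 1463 CPM (DTX) in subcluster 0, raised in Plac8 and Mfap5, against 2919 and 3338 CPM in subcluster 3, led by Coch and Fmod. In epithelial-like cells of PBS it was 1259 CPM in subcluster 1, raised in infundibulum genes, and 3251 CPM in subcluster 2, led by Igfbp3 and Itga2. In dendritic-like cells S100a6 was 2735 and 2765 CPM in cluster 6 and 1301 and 1148 CPM in cluster 8, whereas S100a11 was 1636 and 1787 CPM in cluster 6 and 2187 and 2165 CPM in cluster 8.

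Mrc1 had 2.84 CPM (PBS) and 15.7 CPM (DTX) in epithelial-like cells and 2.94 and 15.2 CPM in fibroblast-like cells, where macrophage-like cells were 23.1% and 69.0% of kept cells.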
